A study of Mus musculus with 6 samples.

Results

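The SOCS genes Cish, Socs1, Socs2 and Socs3, the kinase genes Pim1 and Pim2, the cytokine genes Lif and Osm, and the receptor genes Il6ra and Il6st were followed in activated mouse CD8+ T cells cultured with or without butyrate. These 10 genes were taken by name from a table of 27179 gene numbers, and all 10 had at least 3 counts in every library. RNA had been sequenced from 3 libraries of cells given butyrate, a bacterial short-chain fatty acid that inhibits histone deacetylases, from day 3 of culture, and from 3 control libraries without it. All 6 came from spleen cells of gBT-I transgenic mice, whose CD8+ T cells carry a transgenic receptor that recognises a glycoprotein B (gB) epitope of herpes simplex virus. In both groups total splenocytes had been activated in vitro with the gB498-505 peptide and LPS, had received IL-2 on days 2, 3, 4 and 5, and were harvested on day 6. The labels give neither the butyrate dose, nor the age of the mice, nor a sort of the cells, and do not say what the replicates of a group are, so the p-values rest on a spread between libraries that could be technical.

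IL-2 binding to its receptor activates the kinases JAK1 and JAK3, which phosphorylate STAT5, and STAT5 dimers then bind DNA and induce a set of early target genes. Among these, the SOCS proteins (Cish encodes the first described of them) feed back on the receptor and its kinases, PIM kinases favour survival and growth, and oncostatin M is a secreted cytokine. LIF, oncostatin M and IL-6 belong to the family of cytokines whose receptors contain gp130, the product of Il6st, and which signal mainly through STAT3. Il6ra encodes the IL-6 binding chain.

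The letters TTCNNNGAA are the core that STAT5 dimers bind, and they read the same on both strands. They were searched in the promoter windows of RefSeq (build GRCm38.p6), each running from 250 bases before to 50 after an annotated gene start. Of the 10 genes, 8 had an entry, and Socs2 and Osm had none. The core was found in 2 genes, at 2 places in Cish and 1 in Socs3, while 8.3% of all 32851 windows held it at least once and 0.457% held it at least 2 times. The variant with a longer spacer, TTCNNNNGAA, stood in none of the windows of these genes and in 6.95% of all windows. The windows of Cish and Socs3 are shown because they hold the core (in capitals), that of Lif because its RNA changed most, and those of Pim1 and Pim2 because their RNA moved in opposite directions. A match is only a run of letters, and its absence from so short a window says nothing about the factor.
Cish, chr9:107296409-107296708, plus strand: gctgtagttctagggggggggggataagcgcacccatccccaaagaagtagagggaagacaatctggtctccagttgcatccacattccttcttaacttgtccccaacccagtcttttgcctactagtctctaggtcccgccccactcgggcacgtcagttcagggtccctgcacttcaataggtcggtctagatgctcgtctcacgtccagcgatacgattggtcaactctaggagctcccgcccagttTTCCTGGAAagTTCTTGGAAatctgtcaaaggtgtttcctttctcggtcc
Socs3, chr11:117969317-117969616, minus strand: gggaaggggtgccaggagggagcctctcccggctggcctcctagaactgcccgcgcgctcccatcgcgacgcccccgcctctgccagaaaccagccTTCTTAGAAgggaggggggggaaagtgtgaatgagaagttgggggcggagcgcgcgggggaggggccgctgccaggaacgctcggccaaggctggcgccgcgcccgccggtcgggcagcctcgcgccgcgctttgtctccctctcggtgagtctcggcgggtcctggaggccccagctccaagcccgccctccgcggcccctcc
Lif, chr11:4257318-4257617, plus strand: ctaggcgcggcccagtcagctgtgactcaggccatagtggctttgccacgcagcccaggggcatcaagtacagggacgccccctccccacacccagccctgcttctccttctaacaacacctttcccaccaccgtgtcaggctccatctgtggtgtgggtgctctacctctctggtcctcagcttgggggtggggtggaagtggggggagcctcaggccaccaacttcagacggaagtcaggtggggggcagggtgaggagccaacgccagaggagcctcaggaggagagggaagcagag
Pim1, chr17:29490535-29490834, plus strand: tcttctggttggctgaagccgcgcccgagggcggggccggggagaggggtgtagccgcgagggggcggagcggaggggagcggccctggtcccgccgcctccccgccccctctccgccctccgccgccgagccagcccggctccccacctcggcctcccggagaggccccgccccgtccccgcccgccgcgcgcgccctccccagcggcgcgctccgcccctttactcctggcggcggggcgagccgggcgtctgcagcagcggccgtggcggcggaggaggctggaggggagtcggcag
Pim2, chrX:7878056-7878355, plus strand: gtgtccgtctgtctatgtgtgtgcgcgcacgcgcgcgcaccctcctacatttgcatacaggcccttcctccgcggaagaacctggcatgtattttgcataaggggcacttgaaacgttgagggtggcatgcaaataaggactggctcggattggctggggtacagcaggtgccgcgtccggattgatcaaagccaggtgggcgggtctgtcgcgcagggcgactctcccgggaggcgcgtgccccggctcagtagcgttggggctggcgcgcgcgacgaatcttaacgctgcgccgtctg
In Cish the matches were TTCCTGGAA, whose first base is base 1 of the annotated transcript, and TTCTTGGAA, which begins at base 12. In Socs3 the match TTCTTAGAA begins 154 bases before the start to which this window belongs, base 117969366, which lies inside the gene and is not its outermost start. A second Pim1 window, from a start further inside the gene, held no core either.

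Library totals ran from 5383380 to 6244350 counts, and 3 counts, the upper limit for a gene with a count of 0, correspond to 0.487 to 0.556 CPM (read counts scaled to a common library size with TMM factors). This limit covers counting error only. All 8 T cell markers were present in every library, with summed levels of 5500 to 6715 CPM with butyrate and 6105 to 6405 CPM in control. Of these 8, 2 fell, Cd3e by 0.61 and Lck by 0.43 on the log2 scale (edgeR adjusted p = 0.000816 and 0.00605), and 6 were not called. Markers of other cells that make or sense gp130 cytokines were low. Their sums were 84 to 101 CPM with butyrate and 25.8 to 85.5 CPM in control for 12 myeloid and dendritic cell markers, of which Siglech was at 0 throughout, and 14.8 to 42.3 CPM with butyrate and 4.08 to 16.2 CPM in control for 8 granulocyte and mast cell markers. For 5 NK cell markers they were 16.5 to 22.7 CPM with butyrate and 5.58 to 8.76 CPM in control, and for 5 erythroid markers 1.72 to 24.8 CPM with butyrate and 0.185 to 0.9 CPM in control. B cell markers (7), of which Pax5 was at 0 throughout, summed to 14.2 to 22.4 CPM with butyrate and 15.2 to 21.1 CPM in control, and 1 of the 2 tested rose, Cd22 (log2 fold change 2.49, edgeR adjusted p = 0.00334). Cd22 had 4, 3 and 5 counts in control libraries and so passed the expression filter only through the butyrate libraries. Stromal and endothelial markers (6, with Col1a2, Col3a1 and Cdh5 at 0 throughout) summed to 43.3 to 55.3 CPM with butyrate and 47.5 to 69.7 CPM in control. Most of that sum was Pecam1, at 54.0, 42.6 and 46.8 CPM with butyrate and 69.5, 47.5 and 49.2 CPM in control. Fewer cells of a type and less RNA per cell cannot be told apart in such bulk libraries.

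With butyrate, 8 of the 10 genes rose, Pim2 fell, and Il6ra did not pass the test. The test was edgeR's quasi-likelihood F test over 11740 genes with Benjamini-Hochberg adjustment, and a gene was called at an adjusted p under 0.05. Butyrate moved a large part of the transcriptome, so these counts stand against a high background: 45.9% of all tested genes were called in either direction, 23.5% higher (2756 genes) and 22.5% lower (2637 genes). With upper quartile scaling the split was 3338 higher and 2067 lower. The 10 genes had a median log2 fold change of 0.75, against 0.00 over all genes tested. The groups did not overlap for 8 of the 10 genes, while 57.1% of all tested genes had groups that did not overlap. Butyrate and control libraries of equal replicate number gave the same direction in all 3 pairs for 9 of the 10 genes and for 73.2% of all tested genes.

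**Figure D1:**
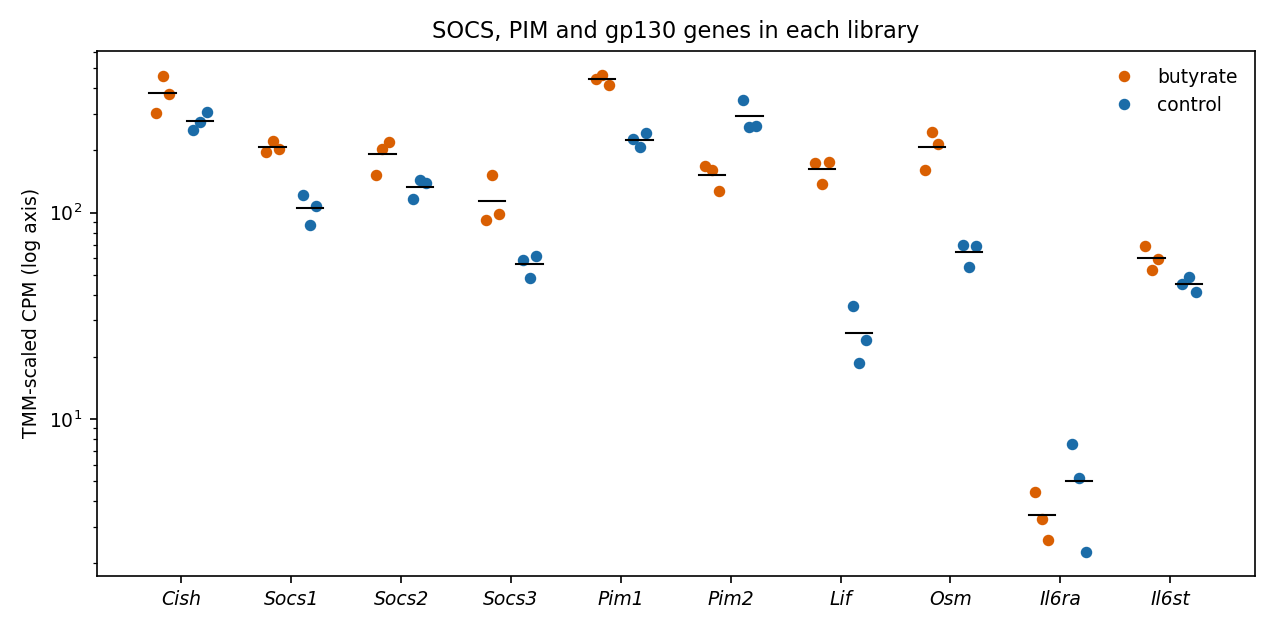
Level of each of the 10 genes in each library, in TMM-scaled CPM on a log axis, with butyrate libraries left of control libraries and a black bar at each group's mean (n = 3). The groups are separate for 8 genes and overlap for Cish and Il6ra, and the widest gap is that of Lif, at 162 CPM with butyrate and 26.1 CPM in control.

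Among the feedback inhibitors, Socs1 and Socs3 rose most with butyrate (1.97-fold and 2.04-fold by the means of the groups), and Cish and Socs2 rose 1.36-fold and 1.44-fold. Socs1 (gene 12703, chromosome 16, 10783808 to 10785536, GRCm38.p6) encodes an inhibitor that binds JAK kinases directly. It stood at 196, 223 and 203 CPM in butyrate libraries, against 121, 86.8 and 108 CPM in control libraries. Every butyrate library lay above every control library, and the log2 fold change was 0.97 (SE 0.123, edgeR adjusted p = 0.000375). Socs3 (gene 12702, chromosome 11, 117966079 to 117970336), the inhibitor that docks on gp130 as well as on JAK kinases, stood at 92.5, 152 and 98.3 CPM with butyrate, against 58.9, 48.0 and 61.3 CPM in control. Butyrate replicate 2 was well above the other butyrate libraries, and the groups did not overlap. Its log2 fold change was 1.03 (SE 0.19, edgeR adjusted p = 0.00245), and it was 0.76 without butyrate replicate 2.

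Cish, the gene in this group with 2 STAT5 cores in its window, showed a small rise. Cish (gene 12700, chromosome 9, 107296659 to 107302784) encodes a protein that binds phosphorylated cytokine receptors, the IL-2 receptor among them. It stood at 303, 458 and 374 CPM with butyrate, against 250, 275 and 308 CPM in control. The lowest butyrate library lay just under the highest control library. The log2 fold change was 0.45 (SE 0.148, edgeR adjusted p = 0.0348). This call was lost without butyrate replicate 2 (log2 fold change 0.29, edgeR adjusted p = 0.12), without butyrate replicate 3 (0.46, adjusted p = 0.0667), and without control replicate 1 (0.39, adjusted p = 0.105) or 2 (0.45, adjusted p = 0.0916).

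Socs2 (gene 216233, chromosome 10, 95383903 to 95417321), known as a restraint on growth hormone signalling, stood at 152, 203 and 220 CPM with butyrate, against 116, 144 and 139 CPM in control. The groups did not overlap, though butyrate replicate 1 was close to the control libraries. The log2 fold change was 0.52 (SE 0.144, edgeR adjusted p = 0.0162). The call was lost without butyrate replicate 2 (0.48, edgeR adjusted p = 0.0575), butyrate replicate 3 (0.41, adjusted p = 0.0534) or control replicate 1 (0.45, adjusted p = 0.0563).

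Of the other 4 SOCS genes, which are not among the classic cytokine-induced ones, Socs5 fell and 3 were not called. Socs5 (gene 56468) stood at 14.7 ± 1.53 CPM with butyrate and 19.9 ± 2.61 CPM in control (SD, n = 3 each), which is -0.44 on the log2 scale (SE 0.148, edgeR adjusted p = 0.0369). Its call was lost with upper quartile scaling (edgeR adjusted p = 0.0776) and DESeq2 (0.0983), and without butyrate replicate 2 (edgeR adjusted p = 0.12) or 3 (0.0623) or control replicate 1 (0.124) or 2 (0.0781). Socs4, Socs6 and Socs7 did not pass the test, with log2 fold changes of -0.14, -0.17 and 0.03 (edgeR adjusted p = 0.204, 0.258 and 0.737). Per unit length, Cish and Socs1 to Socs3 together made up 91.9% ± 1.16 of the RNA of the 8 SOCS genes with butyrate and 86.9% ± 0.927 in control (SD, n = 3 each). The sum over the 8 genes was 316 ± 47.4 RPKM (TMM-scaled CPM per kilobase of exon) with butyrate and 211 ± 11.3 RPKM in control. Within it, the share of Socs1 was 22.7% ± 2.09 with butyrate and 17.2% ± 2.97 in control, and that of Cish 32.6% ± 1.81 with butyrate and 36.0% ± 2.16 in control.

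**Figure D2:**
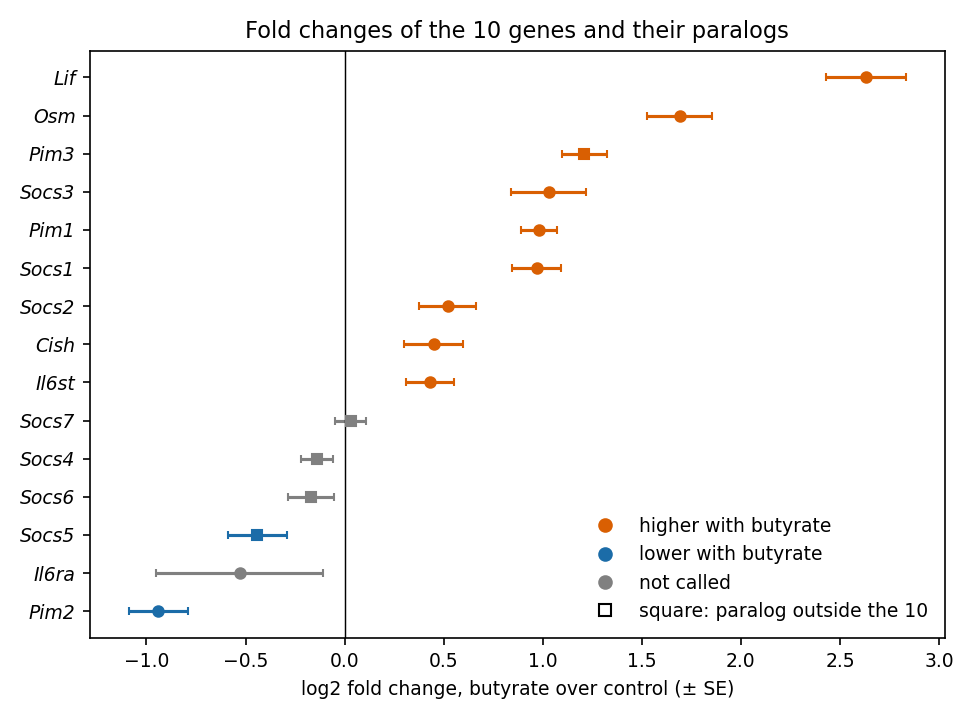
Log2 fold change of butyrate over control with its standard error for the 10 genes (circles) and for the SOCS and PIM paralogs outside them (squares), coloured by the edgeR call. Lif lies highest at 2.63 and Pim2 lowest at -0.94, and Socs4, Socs6 and Socs7 lie near 0.

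The PIM kinases, serine/threonine kinases that are active as soon as they are made and are therefore governed by how much RNA and protein is present, moved in opposite directions. Pim1 (gene 18712, chromosome 17, 29490785 to 29496111) stood at 445, 466 and 417 CPM with butyrate, against 226, 207 and 243 CPM in control. The libraries of each group were tightly spaced and far from the other group. The log2 fold change was 0.98 (SE 0.0908, edgeR adjusted p = 9.65e-05). Pim2 (gene 18715, chromosome X, 7878306 to 7883432) stood at 168, 161 and 127 CPM with butyrate, against 353, 261 and 263 CPM in control. It was the only one of the 10 genes called lower, and its groups did not overlap. Its log2 fold change was -0.94 (SE 0.148, edgeR adjusted p = 0.00106), the 475th lowest of 11740 tested genes. Pim3 (gene 223775), the third kinase of the family and not among the 10, rose with Pim1, at 99.8 ± 13.7 CPM with butyrate and 43.3 ± 2.23 CPM in control (SD, n = 3 each, log2 fold change 1.21, edgeR adjusted p = 0.0001).

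The make-up of PIM kinase RNA shifted accordingly, while its sum per unit length did not separate the groups. Per unit length, the 3 PIM genes summed to 330, 342 and 287 RPKM in butyrate libraries and to 408, 320 and 331 RPKM in control libraries, which overlap. That overlap rests on the exon lengths used, of which that of Pim2 is the shortest at 1113 bases. Summed as CPM without correction for length, every butyrate library lay above every control library. Pim2 made up 45.7%, 42.4% and 39.6% of the RPKM sum with butyrate, against 77.7%, 73.5% and 71.4% in control. Pim1 made up 43.2%, 43.8% and 46.6% of the RPKM sum with butyrate, against 17.8%, 20.8% and 23.6% in control. Neither set of shares overlapped between the groups. The ratio of Pim1 to Pim2 CPM, which does not depend on how libraries are scaled, was 2.64, 2.89 and 3.29 with butyrate and 0.64, 0.791 and 0.923 in control. Its log2 value was 1.55 ± 0.158 with butyrate and -0.37 ± 0.266 in control (SD, n = 3 each), a difference of 1.92 with an exact two-sided permutation p of 0.1 (0.15 adjusted over the 3 ratios computed), and 0.1 is the smallest p that 3 against 3 libraries can give.

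**Figure D3:**
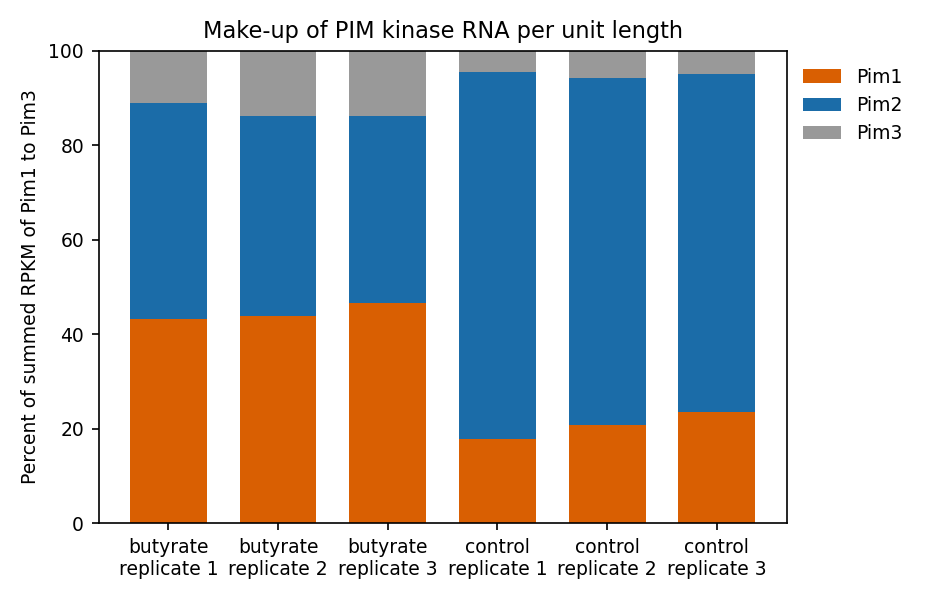
Share of Pim1, Pim2 and Pim3 in their summed RPKM in each library, as stacked bars from 0 to 100%, with the 3 butyrate libraries on the left and the 3 control libraries on the right. Pim2 takes 39.6% to 45.7% with butyrate and 71.4% to 77.7% in control.

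The gp130 cytokine genes showed the largest changes of the 10. Lif (gene 16878, chromosome 11, 4257568 to 4272514) encodes leukaemia inhibitory factor, a cytokine best known for keeping mouse embryonic stem cells undifferentiated. It stood at 173, 138 and 175 CPM with butyrate, against 35.3, 18.7 and 24.2 CPM in control. The groups lay far apart, with the lowest butyrate library above the highest control library by more than the spread of either group. The log2 fold change was 2.63 (SE 0.202, edgeR adjusted p = 4.77e-05), the 354th highest of 11740 tested genes. Osm (gene 18413, chromosome 11, 4236785 to 4241026), a textbook STAT5 target that encodes oncostatin M, stood at 161, 247 and 214 CPM with butyrate, against 69.5, 54.3 and 68.8 CPM in control. These groups did not overlap either, and the log2 fold change was 1.69 (SE 0.164, edgeR adjusted p = 0.000115), the 715th highest.

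Lif and Osm are neighbours, with 16541 bases and 0 other RefSeq gene starts between them in GRCm38.p6. The ratio of Lif to Osm CPM, not corrected for length, was 1.07, 0.557 and 0.818 with butyrate and 0.508, 0.345 and 0.351 in control. The log2 ratio was higher with butyrate by 1.00, and the groups did not overlap (exact two-sided permutation p = 0.1, adjusted p = 0.15 over the 3 ratios). Myeloid cells also make these cytokines, and of the myeloid and dendritic cell markers 1 of 5 tested rose: Itgam, at 51.0, 48.0 and 33.3 CPM with butyrate and 4.68, 3.34 and 4.22 CPM in control. Without Itgam the other 11 of these markers summed to 32.9 to 67.4 CPM with butyrate and 22.4 to 81.3 CPM in control, ranges that overlap. All 3 tested NK cell markers and 2 of 3 tested granulocyte and mast cell markers rose. Of these, Cxcr2 and Siglecf, both granulocyte markers, had at most 4 counts in any control library and so passed the filter only through the butyrate libraries. The same held for the NK cell markers Tyrobp, with 8, 4 and 13 counts in control libraries, and Klre1, with 10, 17 and 10. The part of such cells in the rise of Lif and Osm was not tested.

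Of the receptor chains, Il6st rose slightly and Il6ra was not called. Il6st (gene 16195, chromosome 13, 112464070 to 112506860), the gene of the shared chain gp130, stood at 69.2, 52.6 and 59.3 CPM with butyrate, against 45.0, 48.6 and 41.2 CPM in control. The lowest butyrate and highest control libraries lay close together. The log2 fold change was 0.43 (SE 0.12, edgeR adjusted p = 0.0181), and the call was lost without butyrate replicate 1 (0.32, edgeR adjusted p = 0.0506) or control replicate 3 (0.37, adjusted p = 0.0555). Il6ra (gene 16194, chromosome 3, 89869324 to 89913196) was the weakest of the 10 genes, with 24, 19 and 14 counts in butyrate libraries and 42, 28 and 14 counts in control libraries. At 4.44, 3.27 and 2.59 CPM with butyrate and 7.56, 5.19 and 2.27 CPM in control the groups overlapped. Its log2 fold change was -0.53 (SE 0.423, edgeR adjusted p = 0.333). The log2 ratio of Il6ra to Il6st was -4.16 ± 0.309 with butyrate and -3.33 ± 0.809 in control (SD, n = 3 each, exact two-sided permutation p = 0.3, also 0.3 adjusted over the 3 ratios).

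Per unit length, Pim1 and Pim2 overlapped at the top of the 10 genes with butyrate, while Pim2 stood clear of the other 9 in control. With butyrate the levels ran from Pim1 (142 RPKM) and Pim2 (137 RPKM) through Cish (104 RPKM), Osm (91.2 RPKM), Socs1 (71.3 RPKM), Socs2 (71.0 RPKM), Socs3 (44.8 RPKM) and Lif (39.9 RPKM) to Il6st (5.5 RPKM) and Il6ra (0.397 RPKM). From Pim1 down to Lif each gene overlapped the next between libraries, so the order of adjacent genes there is not resolved. In control Pim2 (263 RPKM) stood clear of Cish (76.1 RPKM) and Pim1 (72.3 RPKM), which overlapped each other. Below them came Socs2 (49.3 RPKM), then Socs1 (36.3 RPKM), Osm (28.3 RPKM) and Socs3 (22.0 RPKM), of which each overlapped the next, and last Lif (6.43 RPKM), Il6st (4.09 RPKM) and Il6ra (0.58 RPKM). Exon lengths are merged GENCODE M21 exons, which may differ from those used for counting, so differences between genes carry that error. Differences between groups in a single gene do not. Sums and shares over several genes weight each gene by its length, so their differences between groups carry it too.

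Of the other ligands and receptors of the gp130 family, most were not expressed at a testable level. Among 8 further ligand genes 2 passed the filter on low counts, 1 of them higher and 1 lower with butyrate. Clcf1, which encodes cardiotrophin-like cytokine factor, fell, at 12.8, 9.11 and 7.39 CPM with butyrate and 27.2, 25.0 and 21.1 CPM in control (log2 fold change -1.32, edgeR adjusted p = 0.000872). Ebi3, a subunit of IL-27 and IL-35, rose, at 27.6, 15.3 and 17.9 CPM with butyrate and 11.5, 11.1 and 12.5 CPM in control (log2 fold change 0.78, edgeR adjusted p = 0.0178). This call was lost without control replicate 2 (0.75, edgeR adjusted p = 0.0519), and the log2 fold change was 0.50 without butyrate replicate 1, with the call kept. Il6 itself had 3 counts over the butyrate and 1 over the control libraries and was not tested. Of 6 further receptor genes 1 was tested, Il27ra, which encodes the IL-27 receptor alpha chain that pairs with gp130. It fell, at 69.9, 64.5 and 61.5 CPM with butyrate and 112, 118 and 99.1 CPM in control (log2 fold change -0.75, edgeR adjusted p = 0.000395). The receptor genes Lifr, with 7 counts over the butyrate and 2 over the control libraries, and Osmr, with 1 over each group, were not tested.

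Upstream of the 10 genes, the genes of JAK kinases and STAT factors were mostly lower or not called. Of 11 tested, 1 rose, 6 fell and 4 were not called, with a median log2 fold change of -0.29. The count lower ran from 4 to 6 over the alternatives. It was 4 with upper quartile scaling and without butyrate replicate 2 or control replicate 1. Jak2 fell by 0.72, Jak3 by 0.49 and Stat6 by 0.45 on the log2 scale (edgeR adjusted p = 0.00108, 0.00582 and 0.00397). Stat5a, at 73.7 ± 2.13 CPM with butyrate and 63.3 ± 2.19 CPM in control (SD, n = 3 each), had a log2 fold change of 0.22 (edgeR adjusted p = 0.0472). Its call was lost without any 1 of the 6 libraries (edgeR adjusted p = 0.064, 0.0906 and 0.114 without butyrate replicates 1, 2 and 3, and 0.0786, 0.0859 and 0.138 without control replicates 1, 2 and 3), with DESeq2 (0.146) and with no filter (edgeR adjusted p = 0.149). Stat3, chosen after its values were seen, was not called (log2 fold change 0.20, edgeR adjusted p = 0.0635), but was called higher with the replicate block (edgeR adjusted p = 0.0327), upper quartile scaling (0.0173) and the filter of 5 CPM (0.0409). Stat5b, likewise chosen after its values were seen, stood at 178 ± 4.3 CPM with butyrate and 187 ± 8.93 CPM in control and did not pass the test (log2 fold change -0.07, edgeR adjusted p = 0.469). Of the IL-2 receptor chains, Il2ra had a log2 fold change of 1.54 (edgeR adjusted p = 5.06e-05), Il2rb of 0.41 (adjusted p = 0.015) and Il2rg of -0.31 (adjusted p = 0.0241). The call of Il2rb was lost without butyrate replicate 2 (edgeR adjusted p = 0.0544) or control replicate 2 (0.0539), and that of Il2rg without butyrate replicate 3 (0.0642) or control replicate 1 (0.0675) or 3 (0.0781), and with upper quartile scaling (0.072).

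Regulators that restrain JAK-STAT signalling by other means than the SOCS proteins moved in both directions. Of 12 such genes 11 were tested, 2 rose, 5 fell and 4 were not called, and their median log2 fold change was -0.20. The count lower was 3 without butyrate replicate 1, butyrate replicate 3 or control replicate 1. Ptpn1, a phosphatase that acts on JAK kinases, rose by a log2 fold change of 0.73 (edgeR adjusted p = 0.0011), and Dusp2, a nuclear MAP kinase phosphatase, by 0.32 (adjusted p = 0.0136, lost without control replicate 2 at 0.0509). Ptpn6, which encodes the phosphatase SHP-1, fell by 1.04, Sh2b3, the adaptor LNK, by 0.98 and Pias3, an inhibitor of STAT3, by 0.97 on the log2 scale (edgeR adjusted p = 0.000532, 0.00569 and 0.000251).

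Other genes known to respond to IL-2 or STAT5, a list that also holds Il2ra, rose in 12 of 17 tested and fell in 3, with a median log2 fold change of 0.86. Lta, the lymphotoxin alpha gene, rose by a log2 fold change of 4.35 (edgeR adjusted p = 2.52e-05). Prdm1, which encodes the effector factor Blimp-1, stood at 150, 184 and 204 CPM with butyrate and 32.9, 26.5 and 43.8 CPM in control (log2 fold change 2.38, edgeR adjusted p = 4.64e-05). Bcl6, which STAT5 represses and whose product opposes Blimp-1, fell by 2.02 on the log2 scale (edgeR adjusted p = 0.00434) and stood at 7.02 CPM or less in every library. With 17, 6 and 4 counts in butyrate libraries, Bcl6 passed the filter only through the control libraries. Myc rose by 1.63 and Cdkn1b, a cyclin-dependent kinase inhibitor gene, fell by 1.61 on the log2 scale (edgeR adjusted p = 2.9e-05 and 4.26e-05). Il7r, which IL-2 signals lower, had a log2 fold change of -0.44 (edgeR adjusted p = 0.0284), and its call was lost without butyrate replicate 2 (adjusted p = 0.094) or 3 (0.0551) or control replicate 1 (-0.25, adjusted p = 0.0719), and with upper quartile scaling (adjusted p = 0.0617). Genes that STAT3 is known to induce rose in 8 of 10 tested, and the other 2 were not called (median log2 fold change 1.17). Among the 8 were Icos by 1.50, Cebpb by 1.30 and Junb by 0.95 on the log2 scale (edgeR adjusted p = 4.49e-05, 0.000247 and 0.000221). The count higher ran from 6 to 9 over the alternatives. Il4ra kept its call in 8 of 15 alternatives and Maff in 7 of 14. Fos, also called higher, had 4, 2 and 4 counts in control libraries and passed the filter only through the butyrate libraries. All these lists were drawn up with earlier results of these data known, and their counts are descriptions to be set beside the 23.5% higher and 22.5% lower over all genes.

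**Figure D4:**
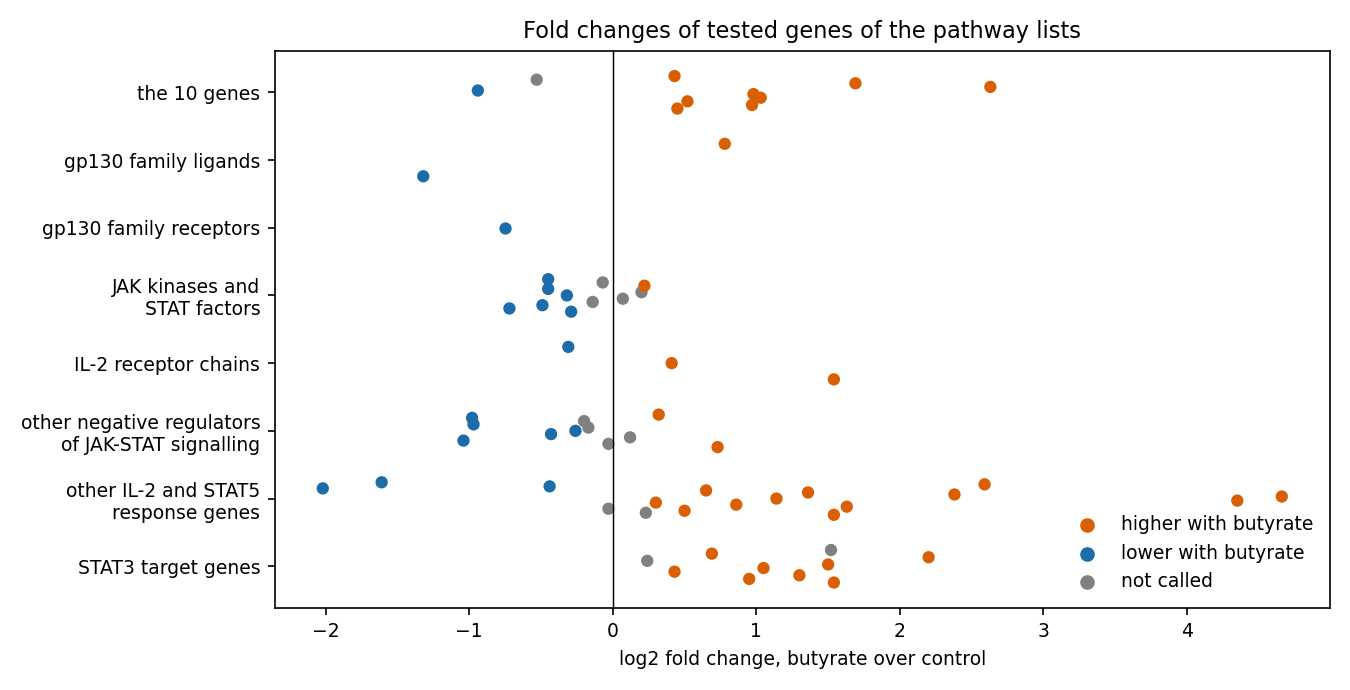
Log2 fold change of butyrate over control for each tested gene of the 10 and of the pathway lists, 1 point per gene, coloured by the edgeR call. The JAK and STAT genes lie mostly left of 0 (6 of 11 lower) and the IL-2 and STAT5 response genes mostly right of it (12 of 17 higher).

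The genes whose profile over the 6 libraries was most like that of Lif, the gene of the 10 with the largest change, were Spsb1, Extl1, Usp2, Tesc and Tnfrsf4. Likeness was the root mean square difference of log2 levels, each centred on its own mean, and it ran from 0.095 for Spsb1 to 0.168 for Tnfrsf4. Spsb1 stood at 8.19 ± 0.542 CPM with butyrate and 0.936 ± 0.455 CPM in control, and Tesc at 40.7 ± 1.97 CPM with butyrate and 6.48 ± 1.55 CPM in control (SD, n = 3 each). Most of that likeness is the difference between the groups, which all these genes share. Spsb1 and Usp2, the latter at 1.29 ± 0.595 CPM in control (SD), passed the filter only through the butyrate libraries. Their control profiles rest on few counts.

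**Figure D5:**
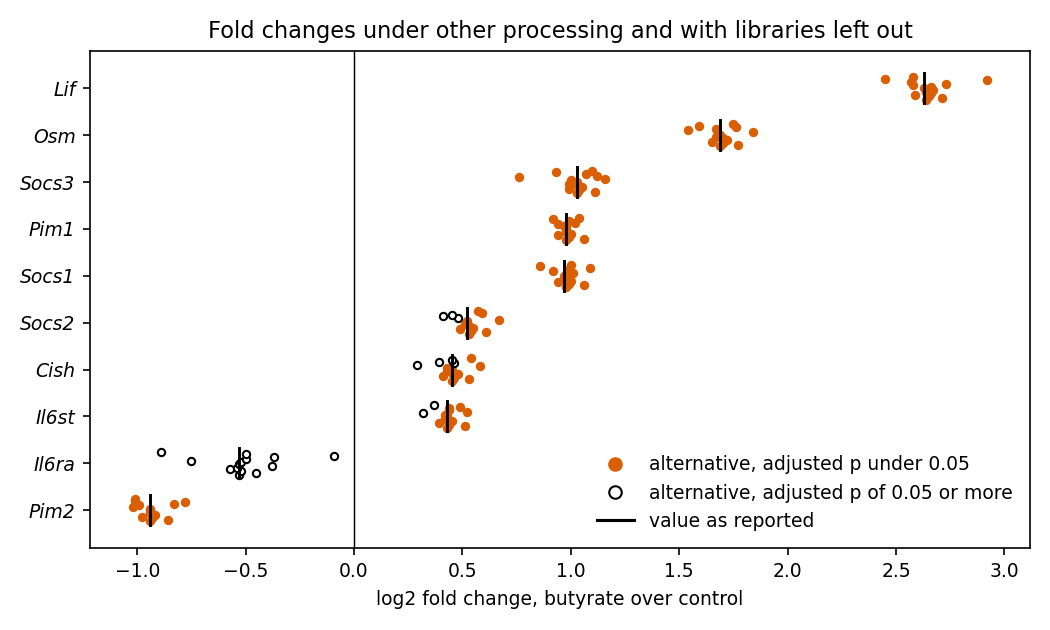
Log2 fold change of each of the 10 genes as reported (black line) and under 15 alternatives (14 for Il6ra), filled where the edgeR, limma or DESeq2 adjusted p was under 0.05 and open where it was not. Every alternative kept the sign of each gene, and open points occur for Socs2, Cish, Il6st and Il6ra.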

How the data were processed

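The authors deposited raw read counts per gene for 6 libraries, keyed by Entrez gene number. Per the submitters' processing notes, featureCounts and Subread, TopHat, CASAVA, Picard and edgeR were used, with the build mm10. For the role and version of each, the annotation, the strand setting and the handling of shared reads, the sources used here give nothing. Without a known strand setting, antisense transcripts that overlap a gene cannot be told apart from it. Per the labels, Trizol RNA (1 µg) entered TruSeq libraries. Symbols and positions come from RefSeq GRCm38.p6, which named 25275 of 27179 gene numbers. The 1904 others held 0.965% to 1.2% of a library's counts and stayed in the tests.

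From the counts, edgeR 4.0.16 (R 4.3.3) computed TMM factors, the filterByExpr filter and the quasi-likelihood test of butyrate against control with Benjamini-Hochberg adjustment over 11740 genes. The code was tested on simulated data. A standard error is the absolute log2 fold change divided by the root of F. Alternatives were scaling by RLE, by the upper quartile or by totals only, DESeq2 1.42.0, limma voom 3.58.1, robust edgeR, no filter, a minimum of 5 CPM in 3 libraries, a replicate block and each library left out. Replicates of a group were not the same library counted again (chi-square per degree of freedom 5.43 to 10.6, with 1 for sampling noise alone). Libraries of equal number, which the labels tie to no mouse or day, deviated together from their group means (r = 0.36, 0.20 and 0.35 over genes). This is a sign of pairing from these data and not from the design. The main fit and the permutation tests given in the text did not pair the samples, and the replicate block was only an alternative. The 10 genes and all lists were chosen with earlier results of these data known. The text names the 10 genes, their SOCS and PIM paralogs, and up to 3 called genes per list and direction with the smallest p. Some further genes are named only to give a limit of a count. 1 gene of these lists is left out of the text.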

Additional observations from a re-analysis of the deposited data

How the results depend on the processing

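Over the alternatives for the 10 genes, 140 of 149 values kept their direction and side of the threshold, 9 lost the call and 0 changed sign. The 9 were leave-one-out fits of Cish, Socs2 and Il6st, which have fewer samples. Il6ra gave no value with the filter of 5 CPM. The count of genes higher among the 10 was 6 to 7 with a library left out and 8 under every other alternative, and the count lower was 1 throughout. With a library left out, the log2 fold change was 2.45 to 2.92 for Lif, 1.54 to 1.84 for Osm, 0.76 to 1.16 for Socs3, 0.86 to 1.09 for Socs1, 0.92 to 1.04 for Pim1 and -1.02 to -0.78 for Pim2, and the difference in the log2 ratio of Pim1 over Pim2 was 1.78 to 2.04. Over all genes, calls ran from 2369 to 3338 higher and 2067 to 3095 lower. The replicate block gave 3220 higher and 3095 lower and changed the call of 0 of the 10 genes. Among the pathway-list genes whose values the text gives, it changed the call of Stat3 and of none of the others. Il6ra rests on 14 to 42 counts per library, and its log2 fold change was -0.89 to -0.09 with a library left out. The 3 libraries per group limit exact tests to p = 0.1.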
